A study of Mus musculus with 11 samples.

Results

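Colonic epithelium of mice that lack 2 of the miR-181 clusters was compared with that of wild-type mice after injury with dextran sulphate sodium (DSS). The comparison takes 6 of the 11 libraries of the series, 3 labelled wild type (DSS WT) and 3 labelled double knockout (DSS DKO), and was made by genotype and treatment labels alone. DKO mice carried deletions of a pair of clusters, miR-181a1-b1 and miR-181a2-b2. All 6 libraries came from mice that were given 2% DSS for 7 days and then left for 2 days to recover, and their colonic epithelial cells were separated from lymphocytes on Percoll, a density medium. The other 5 libraries came from untreated mice, baseline WT (n = 2) and baseline DKO (n = 3), and their values are given only as background. Strain, age and sex of the mice, whether each library came from 1 animal, and the bases that were deleted are not stated in the labels, which also name no Cre driver or promoter for the deletions. Of 54513 genes in the table, 19267 had enough counts to be tested.

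MicroRNAs are short RNAs that pair with sites in messenger RNAs, mostly in the 3′ untranslated region (3′ UTR), and lower their stability and translation. Pairing rests on the seed, the bases near the 5′ end of the microRNA, so members of a family with 1 seed share predicted targets. miR-181 is known above all from lymphocytes, where it tunes antigen receptor signalling. DSS is a sulphated polysaccharide that damages the colonic epithelium, and the recovery that follows draws on crypt proliferation, differentiation into absorptive and secretory cells, and infiltrating immune cells.

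The mature 5p microRNAs of the family are printed because their shared seed defines the target sites counted further on. Sequences are from RefSeq on GRCm38.p6, with the seed in capitals.
miR-181a-5p: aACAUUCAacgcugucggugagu
miR-181b-5p: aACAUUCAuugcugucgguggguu
miR-181c-5p: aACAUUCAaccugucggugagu
miR-181d-5p: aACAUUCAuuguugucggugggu
The clusters named in the genotype encode miR-181a and miR-181b. On GRCm38.p6 the mature sequences of the first cluster are at chr1:137966468-137966490 (a) and chr1:137966650-137966673 (b), and those of the second at chr2:38852741-38852763 (a) and chr2:38853845-38853868 (b), all on the plus strand. miR-181c and miR-181d lie on chromosome 8 and are not named in the genotype. All 4 share the seed ACAUUCA. The labels could not be checked against the deleted genes, because Mir181a-1, Mir181b-1, Mir181a-2, Mir181b-2, Mir181c and Mir181d had 0 counts in all 11 libraries, which were made from polyadenylated RNA. Mir181a-1hg, the transcript that hosts miR-181a1-b1, had 10, 15 and 13 counts in DSS WT and 21, 31 and 25 in DSS DKO. Its groups did not overlap, but the difference did not pass (log2 fold change 1.14 ± 0.44, SE; adjusted p = 0.124). Nr6a1, which overlaps the second cluster, was at 13.1, 15.3 and 14.9 CPM in WT and 17.3, 16.9 and 24.4 CPM in DKO, and this difference did not pass either (0.44, adjusted p = 0.113).

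The 6 libraries held 43721939 to 52761900 counts each. Values below are CPM, counts scaled to a common library size with TMM factors, and adjusted p-values come from the quasi-likelihood test of edgeR, adjusted by the Benjamini-Hochberg method over all 19267 genes. On the first principal component of the 6 libraries (45.34% of the variance) WT lay between 40.61 and 48.74 and DKO at -12.98, -54.0 and -70.99 in replicates 1, 2 and 3. DKO replicate 1 was therefore the DKO library nearest to WT on this component. Between it and DKO replicates 2 and 3, 11.4% and 21.7% of genes differed over 2-fold. Between it and WT replicates 1, 2 and 3, the shares were 13.1%, 19.8% and 18.4%. Of 14 genes of epithelial identity such as Epcam and Vil1, 0 passed by edgeR (1 at an unadjusted p under 0.05) and 1 each by DESeq2 and limma-voom, and their summed level was 20430.0, 19180.0 and 18890.0 CPM in WT and 18720.0, 18600.0 and 17880.0 CPM in DKO. Xist was at 633 to 906 CPM in the DSS libraries and at 6.75 to 14.5 CPM in the baseline libraries, so the DSS libraries had the Xist level of females and the baseline libraries that of males. The genotypes compared here do not differ in this. Treatment and Xist level go together, so DSS and sex cannot be told apart wherever DSS values are set beside baseline values.

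After DSS, 2165 of the 19267 genes (11.2%) differed between DKO and WT at an adjusted p under 0.05. Of these, 1013 (5.26%) were higher and 1152 (5.98%) lower in DKO, and 532 (2.76%) and 394 (2.04%) of them at least 2-fold. The count rests on single libraries: without DSS DKO replicate 2, DSS WT replicate 2 or DSS WT replicate 3 it was 691, 856 and 866. The count of members that passed changed over 1.5 times in 43, 34 and 37 of the 59 gene lists when these 3 libraries were left out, and in 17, 14 and 18 lists without DSS DKO replicate 1, DSS DKO replicate 3 and DSS WT replicate 1. A group of 601 genes (3.12%), 294 higher (1.53%) and 307 lower (1.59%), passed with all libraries and also when each of the 6 DSS libraries was left out in turn. These are called genes that held, and the genes described below are taken from them unless stated. The groups did not overlap in 6130 genes (31.8%), nearly 3 times as many as passed, so a lack of overlap alone is common, and the genes described were chosen in part for it. Gene groups are described by how many measured members passed, how many held, and the median log2 fold change, which was 0.03 over all genes tested.

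**Figure D1:**
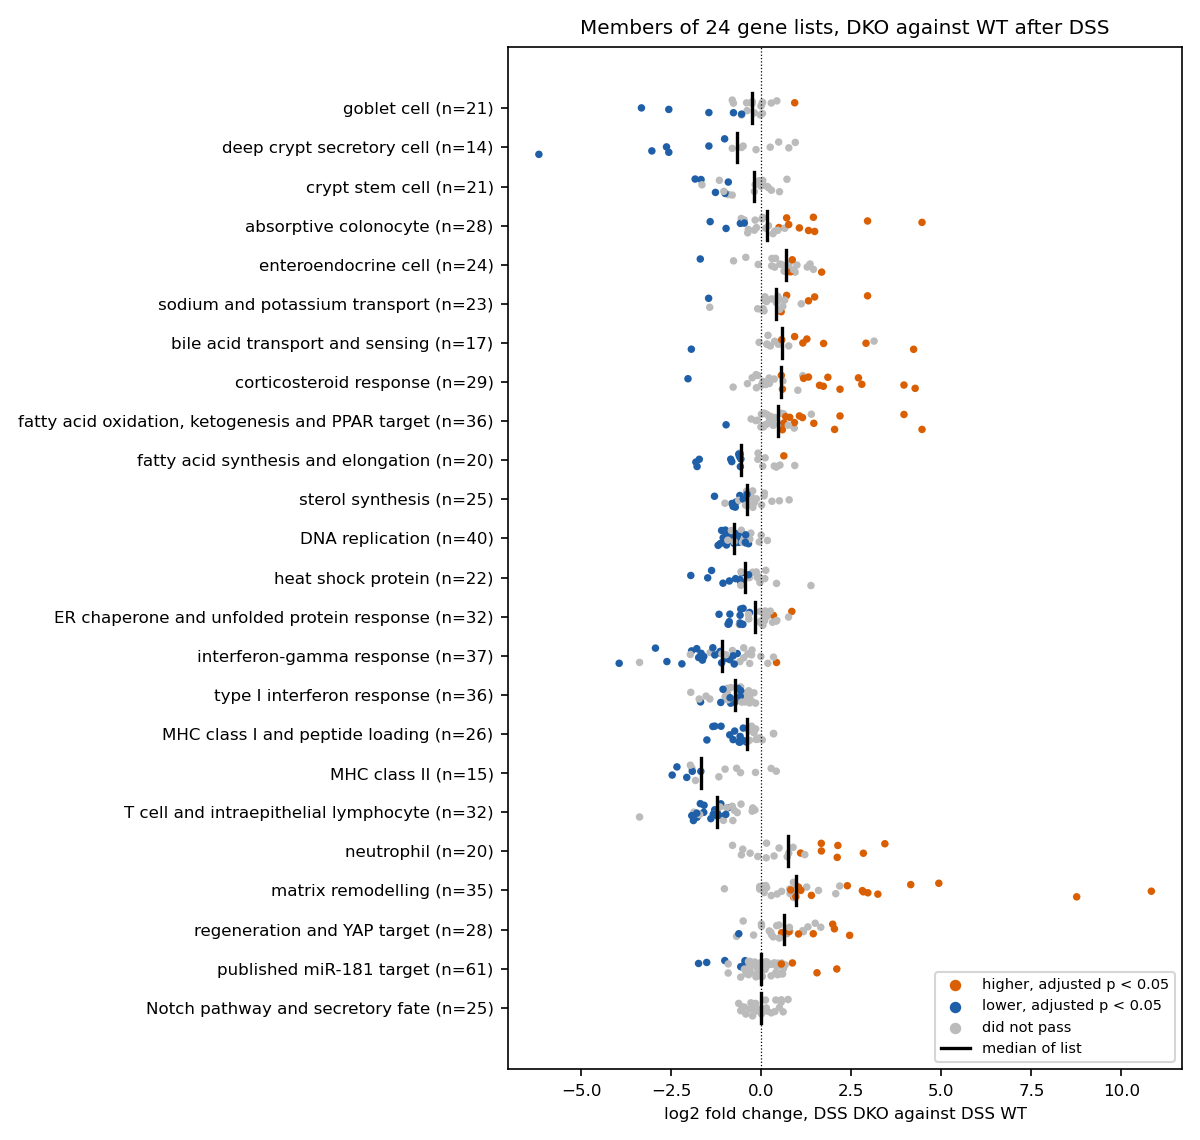
Log2 fold change of DSS DKO against DSS WT (x axis) for the measured members of 24 of the gene lists (y axis, with the number measured). Each point is a gene, orange or blue where it passed the test as higher or lower and grey where it did not, and black bars are list medians. The medians of the interferon-gamma, T cell and DNA replication lists (-1.10, -1.23 and -0.75) lie left of zero and those of the matrix remodelling and neutrophil lists (0.97 and 0.74) right of it, and the points of Mmp10 and Mmp3 at the far right rest on 2 counts each in WT.

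The genes with the largest changes that held, at a mean log2 CPM of 1 or more, are shown first. Mptx1, a secreted pentraxin gene at chr1:174330518-174332873 (GENCODE M21, GRCm38), was at 392, 399.5 and 223 CPM in WT and 5.42, 5.53 and 2.97 CPM in DKO. The lowest WT library was far above the highest DKO library, and the log2 fold change was -6.18 ± 0.38 (SE, adjusted p = 5.39e-05). Baseline epithelium had more of it in both genotypes, 3642 CPM in baseline WT and 3540.0 CPM in baseline DKO. Trpv6, the apical calcium channel, fell to 1.87, 0.324 and 0.0907 CPM in DKO from 30.6, 18.8 and 13.9 CPM in WT, with the least in DKO replicate 3. Fut9, a fucosyltransferase, was at 20.2, 18.3 and 17.1 CPM in WT and 2, 0.729 and 0.317 CPM in DKO (-4.16 ± 0.47, adjusted p = 0.000988), and the groups did not overlap.

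In the other direction, Lrg1, which encodes a secreted leucine-rich glycoprotein of the acute phase, was at 0.509, 0.336 and 0.587 CPM in WT and 24.7, 13.8 and 2.02 CPM in DKO. All DKO libraries were above all WT libraries, and DKO replicate 3 was the lowest of the 3 (4.82 ± 0.77, adjusted p = 0.00577). Zbtb16 (chr9:48654297-48836222), a zinc finger transcription factor gene that glucocorticoids induce, was at 2.29, 1.25 and 1.17 CPM in WT and 10.3, 34.9 and 45.7 CPM in DKO (4.27 ± 0.59, adjusted p = 0.00294). Saa3, an acute-phase serum amyloid gene, was at 2.14, 3.06 and 5.78 CPM in WT and 32.1, 67.6 and 51.9 CPM in DKO, with every DKO library over 5 times its highest WT value. Slc30a2, a zinc transporter gene, was at 0.745, 0.876 and 0.789 CPM in WT and 2.15, 6.83 and 17.6 CPM in DKO, and Plat, tissue plasminogen activator, at 1.43, 4.05 and 3.17 CPM in WT and 12.3, 42.5 and 18.1 CPM in DKO. In Slc30a2, as in Zbtb16, DKO replicate 1 was the lowest of the DKO libraries. Prss23, a serine protease gene, was at 3.96, 3.49 and 3.43 CPM in WT and 10.6, 26.9 and 26.4 CPM in DKO, while baseline epithelium had 16.3 CPM in baseline WT and 13.1 CPM in baseline DKO.

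**Figure D2:**
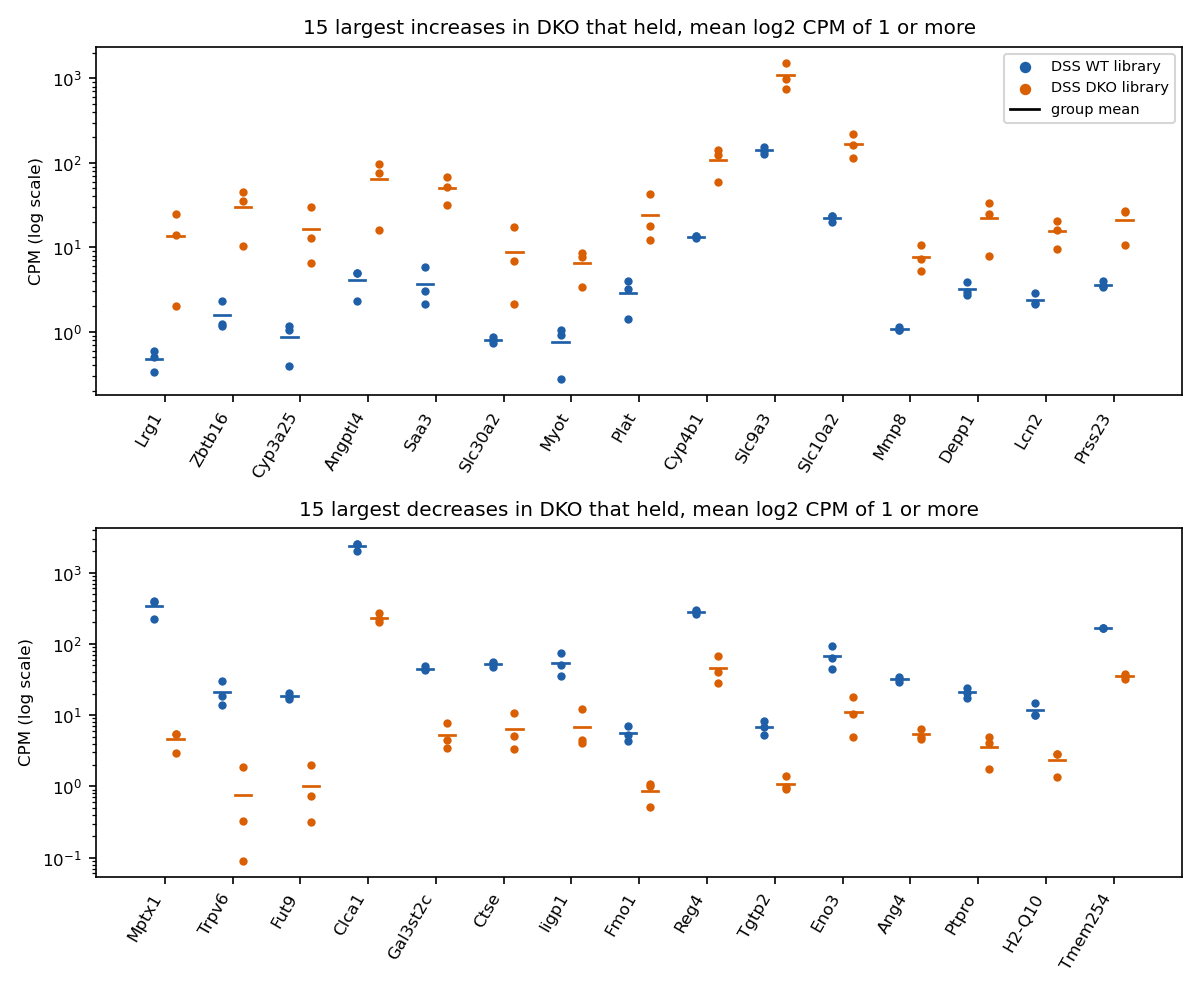
CPM on a log axis (y) of the 15 largest increases (upper panel) and 15 largest decreases (lower panel) that held, by gene (x), among genes with a mean log2 CPM of 1 or more and groups that do not overlap. Cyp24a1, Tgtp1, Slc16a12, Il5ra and Nrg1, which held with changes as large as many shown, lie under that level. Points are the 3 DSS WT libraries in blue and the 3 DSS DKO libraries in orange, and bars are group means. Lrg1 and Trpv6 have the widest spread among DKO libraries, 2.02 to 24.7 and 0.0907 to 1.87 CPM.

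Products of goblet cells, which make mucus, and of deep crypt secretory cells, which lie beside the colonic stem cells, were among the most reduced. Of 14 deep crypt secretory genes, 6 fell, 0 rose and 8 did not pass. Reg4, a lectin gene and the defining marker of these cells, was at 262, 303 and 288 CPM in WT and 68.3, 40.4 and 28.3 CPM in DKO, with all DKO libraries under all WT libraries (-2.64 ± 0.34, adjusted p = 0.00219). Ctse, cathepsin E, was at 54.8, 55.4 and 47.03 CPM in WT and 10.6, 5.04 and 3.36 CPM in DKO (-3.04 ± 0.36, adjusted p = 0.00153). Ang4, an antimicrobial ribonuclease, was at 29.2, 34.5 and 32.1 CPM in WT and 4.98, 6.46 and 4.63 CPM in DKO after DSS, against 941 CPM in baseline WT and 891 CPM in baseline DKO. Mptx1, Ctse, Reg4 and Ang4 held. The median of the list was -0.68.

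The goblet cell list moved in part. Clca1 (chr3:145003817-145032776), which encodes a secreted mucus-processing protease, was at 2493, 2502 and 2043 CPM in WT and 269, 203 and 225 CPM in DKO (-3.33 ± 0.17, adjusted p = 2.51e-06). Muc2, the gel-forming mucin of the same mucus, was at 1988, 1532 and 1534 CPM in WT and 1658, 1883 and 1411 CPM in DKO, with groups that overlapped, and did not pass (-0.03, adjusted p = 0.943). Its sign turned to 0.07 without DSS DKO replicate 3 and to 0.12 without DSS WT replicate 1. Of 21 goblet genes 5 fell, 1 rose (Guca2a, 0.92) and 15 did not pass, and Clca1, Ang4, Foxa3 and Capn9 held. Foxa3, a transcription factor gene of goblet cells, was at 61.3, 65 and 58.3 CPM in WT and 41.8, 33.7 and 32.2 CPM in DKO (-0.78 ± 0.12, adjusted p = 0.00234). The call of Capn9 was lost when libraries were scaled by total count only.

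Enzymes that build and cap mucin sugars changed in both directions. Of 35 mucin-type glycosyltransferase genes, 3 rose and 7 fell, and 2 and 4 without DSS DKO replicate 2. St3gal1, which caps core sugars with sialic acid, was at 14.1, 13.1 and 13.1 CPM in WT and 31.03, 42.4 and 40.4 CPM in DKO (1.49 ± 0.15, adjusted p = 0.000349). Gcnt4, a branching enzyme, was at 17.6, 16.5 and 17.3 CPM in WT and 31.1, 39.3 and 46.96 CPM in DKO, and both rises held. Fut9, Gal3st2c, Gal3st2b and St3gal6 were the decreases that held. Gal3st2c, a galactose sulphotransferase gene with close paralogs, was at 48.3, 44.01 and 42.4 CPM in WT and 7.73, 4.42 and 3.51 CPM in DKO (-3.10 ± 0.46, adjusted p = 0.00421), and reads of the paralogs cannot be told apart with certainty.

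Of 21 crypt stem cell genes, 5 fell and 0 rose, with a median of -0.20. Without DSS DKO replicate 1, 10 crypt stem cell genes fell and the median was -0.70, and without DSS DKO replicate 2 or DSS WT replicate 3, 3 fell. Lgr5, the Wnt-responsive receptor that marks these cells, was at 13.3, 15.99 and 14.3 CPM in WT and 7.22, 3.65 and 2.72 CPM in DKO (-1.68 ± 0.28, adjusted p = 0.00435). Every DKO library was below every WT library, and DKO replicate 1 was the highest of the DKO libraries. Smoc2, a matricellular protein gene of the crypt base, was at 45, 46.1 and 47.1 CPM in WT and 17, 10.5 and 11.04 CPM in DKO (-1.84 ± 0.18, adjusted p = 0.000344), and Cdca7, a chromatin factor gene of cycling crypt cells, at 83.1, 92.7 and 89.6 CPM in WT and 62.3, 32.6 and 36.8 CPM in DKO. These 3 held, and Tnfrsf19 and Rgmb passed but did not hold. Of 29 Wnt target and feedback genes, Lgr5, Tnfrsf19 and Cd44 fell and 26 did not pass. The share of this list that passed was 10.3%, beside 11.2% of all genes tested, and 9 of its genes fell without DSS DKO replicate 1. Axin2, a feedback gene read as a gauge of Wnt signalling, was at 30.2, 12.97 and 13.7 CPM in WT and 21.7, 5.19 and 2.95 CPM in DKO; its groups overlapped and it did not pass (-0.92, adjusted p = 0.396). Cd44, the hyaluronan receptor, was at 102, 118 and 136 CPM in WT and 50.3, 42.6 and 63.1 CPM in DKO (-1.19 ± 0.17, adjusted p = 0.0018).

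Of 25 genes of the Notch pathway and secretory fate, 0 passed by edgeR (1 at an unadjusted p under 0.05), 1 by DESeq2 and 0 by limma-voom. Hes1, the Notch target that restrains secretory fate, was at 40.2, 31.6 and 35.6 CPM in WT and 38.4, 35.6 and 38.01 CPM in DKO (0.06, adjusted p = 0.86). Without DSS DKO replicate 1, 4 of them passed. Of 18 tuft cell genes, Pou2f3, Rgs13 and Dclk1 fell and 0 held, and leaving out DKO replicate 1 gave 5 lower and replicate 2 gave 0. Of 24 enteroendocrine genes, Chga, Cpe and Pyy rose, Insl5 fell and 20 did not pass, with a median of 0.69, and 7 rose without DSS DKO replicate 1. Chga, chromogranin A of the secretory granule, was at 32.9, 20.4 and 21.5 CPM in WT and 61.5, 102 and 74.8 CPM in DKO (1.67 ± 0.21, adjusted p = 0.00106). Insl5, a hormone of colonic L cells, moved the other way, at 31.9, 37.2 and 27.6 CPM in WT and 11.7, 10.2 and 7.89 CPM in DKO (-1.70 ± 0.22, adjusted p = 0.00126), and neither gene had overlapping groups. Cpe, a prohormone-processing enzyme gene, was at 15.3, 17.5 and 16.2 CPM in WT and 27.1, 34.05 and 27.4 CPM in DKO.

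Single transporters of the absorptive surface changed strongly, in both directions, while most members of each transport list did not pass. Slc9a3 (chr13:74121457-74169442), the sodium-proton exchanger NHE3 of the apical membrane, was at 156, 128 and 139 CPM in WT and 751, 985 and 1529 CPM in DKO, with DKO over 4 times every WT library (2.95 ± 0.23, adjusted p = 0.00011). Baseline libraries had 223 CPM in baseline WT and 223 CPM in baseline DKO, so DSS DKO stood above all other groups. Of 23 sodium and potassium transport genes, 5 rose, 1 fell (Kcne3, a potassium channel subunit, -1.47) and 17 did not pass, with a median of 0.41. Scnn1b, which encodes the beta chain of the sodium channel ENaC, was at 5.45, 7.14 and 6.94 CPM in WT and 13.5, 19.3 and 21.6 CPM in DKO (1.48 ± 0.19, adjusted p = 0.000971). Slc9a2, a second apical exchanger, was at 241, 212 and 231 CPM in WT and 316, 364 and 431 CPM in DKO (0.70 ± 0.12, adjusted p = 0.00548). Sgk1, the kinase that keeps these transporters at the surface, was at 179, 182 and 188 CPM in WT and 292, 431 and 633 CPM in DKO, with no overlap (1.31 ± 0.25, adjusted p = 0.0101). Slc9a2, Scnn1b, Sgk1 and Slc9a3 held. Slc9a3, Trpv6, Mptx1, Fut9, Clca1 and Insl5, with Slc10a2 and Cyp4b1 below, are also on a list of proximal or distal colon markers. Of 27 measured members of that list, 6 rose, 7 fell and 14 did not pass (48.1% passed), and 5 rises and 6 falls held. The part of position along the colon in these changes was not tested.

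Of 17 bile acid transport and sensing genes, 7 rose, 1 fell and 9 did not pass, 5 rises and the fall held, and the median was 0.56. Slc10a2, the apical bile acid transporter, was at 19.98, 23.7 and 23.4 CPM in WT and 116, 164 and 223 CPM in DKO (2.90 ± 0.30, adjusted p = 0.000744). Slc51a, a subunit of the basolateral exporter, was at 36.8, 33.2 and 34.3 CPM in WT and 80.97, 132 and 132 CPM in DKO (1.73 ± 0.20, adjusted p = 0.000776). Nr1h4, the bile acid receptor FXR, was at 139, 161 and 188 CPM in WT and 246, 357 and 478 CPM in DKO (1.15 ± 0.21, adjusted p = 0.00687), and none of these groups overlapped. Cyp3a25 and Cyp3a13, cytochromes that hydroxylate steroids and bile acids, were at 0.392, 1.17 and 1.05 CPM in WT and 6.46, 13.02 and 29.7 CPM in DKO and at 102, 94.3 and 91.1 CPM in WT and 161, 257 and 270.1 CPM in DKO. Fabp6, the intracellular bile acid-binding protein, fell, at 8.23, 11.6 and 6.86 CPM in WT and 3.28, 1.66 and 1.95 CPM in DKO (-1.95 ± 0.32, adjusted p = 0.0036).

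Of 15 calcium and phosphate transport genes, Trpv6, Slc34a2 and Cyp24a1 fell and held, Slc8a1 rose (0.64) and 11 did not pass, with a median of -0.08. Slc34a2, a phosphate cotransporter gene, was at 15.2, 14.6 and 9.25 CPM in WT and 5.22, 3.95 and 5.13 CPM in DKO (-1.45 ± 0.20, adjusted p = 0.00153). Cyp24a1, the enzyme that inactivates vitamin D, had 19, 101 and 61 counts in WT and 0, 0 and 1 in DKO, so that no fold is given. Of 18 short-chain fatty acid genes, Slc5a8, Slc16a12 and Acss2 fell and held, 1 rose and 14 did not pass, with a median of -0.09. The summed level of this list overlapped, with DKO replicates 2 and 3 above all WT libraries, at 3698, 4079 and 4241 CPM in WT and 3752, 5806 and 6555 CPM in DKO. Slc5a8, a sodium-coupled carrier of butyrate, was at 467, 522 and 513 CPM in WT and 206, 166 and 211 CPM in DKO (-1.37 ± 0.12, adjusted p = 0.000139). Slc16a12, a carrier related to the monocarboxylate transporters, was at 4.94, 4.59 and 3.96 CPM in WT and 0.592, 0.162 and 0.454 CPM in DKO (-3.47 ± 0.34, adjusted p = 0.000359). Of 22 chloride, bicarbonate and water transport genes, Guca2a, Guca2b, Gucy2c and Slc4a2 rose and Aqp8, Ano1 and Car2 fell, and Ano1, a calcium-gated chloride channel, held (105, 117 and 93.03 CPM in WT and 52.99, 37.3 and 31.9 CPM in DKO; -1.37 ± 0.20, adjusted p = 0.00244). The 4 rises of this list were lost without DSS DKO replicate 2, DSS WT replicate 2 or DSS WT replicate 3. Of 28 absorptive colonocyte genes 9 rose, 4 fell and 15 did not pass (4 rose without DSS DKO replicate 2, DSS WT replicate 2 or DSS WT replicate 3), with Alpi, intestinal alkaline phosphatase, at 22.7, 16.8 and 14.7 CPM in WT and 42.6, 54.1 and 50.5 CPM in DKO (1.44 ± 0.18, adjusted p = 0.000928). Fabp1, which was among the 9, was at 0.0392, 0 and 0 CPM in WT and 0.074, 0.567 and 0.363 CPM in DKO, a trace level.

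**Figure D3:**
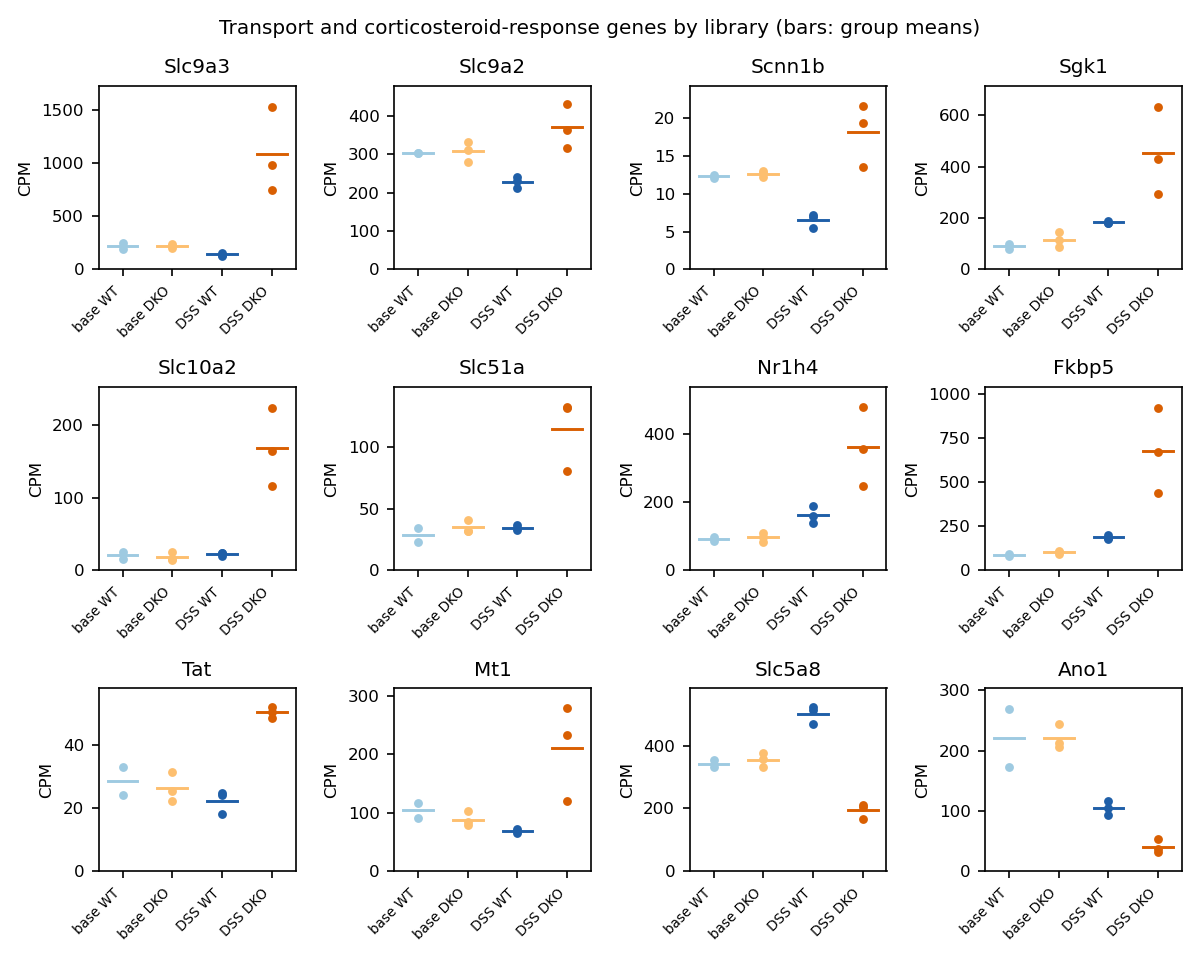
CPM (y axis, from 0) of 12 transport and corticosteroid-response genes in baseline WT, baseline DKO, DSS WT and DSS DKO (x axis). Points are libraries and bars are group means. In 10 of the panels the DSS DKO points lie above all DSS WT points, Slc5a8 and Ano1 lie below them, and Slc9a3 reaches 751 to 1529 CPM in DSS DKO against 128 to 156 CPM in DSS WT.

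A set of corticosteroid-response genes rose. Such genes are induced when the glucocorticoid receptor, encoded by Nr3c1, or the mineralocorticoid receptor binds its hormone. The list also holds the genes of both receptors and genes of steroid synthesis and conversion, such as Cyp11a1 and Hsd11b2. Of 29 measured, 12 rose, 1 fell (Cyp11a1, a steroid synthesis enzyme, -2.04) and 16 did not pass. The median was 0.55, and Zbtb16, Fkbp5, Tat, Sgk1, Mt1, Lcn2, Depp1 and Angptl4 held. Fkbp5, a chaperone of the receptor that its hormone induces, was at 180.1, 185 and 199.7 CPM in WT and 438, 669.8 and 920.1 CPM in DKO (1.84 ± 0.21, adjusted p = 0.000799). Tat, tyrosine aminotransferase, was at 18.04, 24.1 and 24.7 CPM in WT and 50.3, 51.8 and 48.4 CPM in DKO (1.17 ± 0.17, adjusted p = 0.00213), and Mt1, metallothionein 1, at 72.2, 69.6 and 64.9 CPM in WT and 121, 233 and 279 CPM in DKO (1.61 ± 0.25, adjusted p = 0.00407). All 3 DKO libraries were above all WT libraries for each, and DKO replicate 1 was the lowest for Fkbp5 and Mt1. Nr3c1 itself was at 162, 180.4 and 184 CPM in WT and 176, 171 and 184 CPM in DKO and did not pass (adjusted p = 0.959). Its log2 fold change of 0.01 turned to -0.01 without DSS DKO replicate 3 and to -0.03 without DSS WT replicate 1. Of these genes several also answer to other signals: Lcn2 and the metallothioneins are induced in inflammation, and Angptl4 by fatty acids.

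The promoters of Sgk1 and Mt1 are shown because they were the 2, of 10 higher corticosteroid genes with a RefSeq promoter, that held the letters of a glucocorticoid response element, GNACA and TGTNC with any 3 bases between (N is any base), which read alike on both strands. Each runs from 250 bases before to 50 after the annotated start on GRCm38.p6, with the match in capitals, and the same letters occur in 55 of 12735 tested genes' promoters (0.432%).
Sgk1, chr10:21993640-21993939, plus strand: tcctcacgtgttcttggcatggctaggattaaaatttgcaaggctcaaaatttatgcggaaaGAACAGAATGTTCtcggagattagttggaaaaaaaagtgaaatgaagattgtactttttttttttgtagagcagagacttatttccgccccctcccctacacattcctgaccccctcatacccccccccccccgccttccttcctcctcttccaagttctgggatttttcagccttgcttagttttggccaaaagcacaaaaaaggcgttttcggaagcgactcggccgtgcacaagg
Mt1, chr8:94178839-94179138, plus strand: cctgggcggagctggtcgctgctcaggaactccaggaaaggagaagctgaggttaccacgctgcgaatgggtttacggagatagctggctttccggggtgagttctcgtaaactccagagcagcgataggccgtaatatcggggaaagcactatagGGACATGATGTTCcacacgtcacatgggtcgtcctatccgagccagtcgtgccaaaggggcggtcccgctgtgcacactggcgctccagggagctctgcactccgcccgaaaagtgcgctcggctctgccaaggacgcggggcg
The match starts 188 bases before the start of Sgk1 and 94 before that of Mt1. In the whole corticosteroid list, whatever its result, the letters were in 2 of 24 promoters (8.33%). Among genes lower in DKO the letters were in 4 of 882 promoters (0.454%) and among genes higher in 7 of 721 (0.971%).

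Of 36 genes of fatty acid oxidation, ketogenesis and PPAR targets, 12 rose, 1 fell and 23 did not pass, with a median of 0.47. The rises numbered 5 without DSS DKO replicate 2, DSS WT replicate 2 or DSS WT replicate 3, while leaving out DKO replicate 3 gave 8 and DKO replicate 1 gave 18. Angptl4, a secreted inhibitor of lipoprotein lipase, was at 2.31, 5.01 and 4.95 CPM in WT and 16.2, 76.9 and 98.1 CPM in DKO (3.96 ± 0.64, adjusted p = 0.00631). Creb3l3, a transcription factor gene of lipid metabolism, was at 2.66, 1.49 and 2.39 CPM in WT and 6.05, 11.7 and 8.96 CPM in DKO (2.03 ± 0.29, adjusted p = 0.00202), and Acot2, a mitochondrial thioesterase gene, at 6.01, 4.31 and 3.93 CPM in WT and 8.27, 15.5 and 15.3 CPM in DKO. Fabp2, the intestinal fatty acid-binding protein, was the member that fell (227, 193 and 187 CPM in WT and 88.2, 110.1 and 109 CPM in DKO; -0.98 ± 0.18, adjusted p = 0.00652). Of 20 genes of fatty acid synthesis and elongation, 10 fell, 1 rose (Dgat2, 0.62) and 9 did not pass, with a median of -0.58, and 5 fell without DSS DKO replicate 2 and 6 without DSS WT replicate 2 or DSS WT replicate 3. Scd1, the stearoyl-CoA desaturase, was at 69.4, 95.9 and 76.6 CPM in WT and 33.6, 11.5 and 23.3 CPM in DKO (-1.82 ± 0.31, adjusted p = 0.0066), and Fads1, a polyunsaturated fatty acid desaturase, at 31.98, 27.6 and 27.4 CPM in WT and 10.3, 5.95 and 10 CPM in DKO (-1.73 ± 0.21, adjusted p = 0.000817). Both had lower values in every DKO library. Of 25 sterol synthesis genes 8 fell and 0 rose, and Tm7sf2 (34.7, 38.3 and 42.2 CPM in WT and 20.8, 11.99 and 13.8 CPM in DKO) and Dhcr7 (99.1, 111 and 108 CPM in WT and 68.1, 49.1 and 62.7 CPM in DKO), reductases of the pathway, held. Without DSS DKO replicate 2, DSS WT replicate 2 or DSS WT replicate 3, 2 sterol synthesis genes passed in each case, and 5 without DSS DKO replicate 3.

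Among 50 xenobiotic metabolism genes 9 rose and 4 fell, and 18 rose without DSS DKO replicate 1. Cyp4b1, a cytochrome of fatty acid and xenobiotic hydroxylation, was at 12.8, 13.6 and 13.7 CPM in WT and 58.7, 143 and 124 CPM in DKO (3.02 ± 0.38, adjusted p = 0.00209), and Ugt1a1, which glucuronidates bilirubin, at 9.52, 10.5 and 10.4 CPM in WT and 21.3, 41.2 and 53.6 CPM in DKO (1.93 ± 0.31, adjusted p = 0.00407). Fmo1, a flavin monooxygenase, was at 6.99, 5.33 and 4.28 CPM in WT and 0.999, 1.09 and 0.522 CPM in DKO (-2.65 ± 0.30, adjusted p = 0.000743) and Ces1f, a carboxylesterase gene with close paralogs, at 205, 211 and 246 CPM in WT and 103, 108 and 116 CPM in DKO.

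DNA replication genes fell. Of 40 measured, 28 fell, 0 rose and 39 had a negative log2 fold change, and the median was -0.75. Pola1, the catalytic subunit of the priming polymerase, was at 36.4, 41.3 and 43.5 CPM in WT and 19.98, 18.8 and 13.7 CPM in DKO (-1.20 ± 0.16, adjusted p = 0.00122). Mcm5 and Mcm6, subunits of the replicative helicase, were at 120.0, 115 and 112 CPM in WT and 74.4, 44.7 and 37.98 CPM in DKO and at 150.4, 156 and 157 CPM in WT and 99.9, 72.3 and 65.4 CPM in DKO. DKO replicate 1 was the DKO library nearest to WT in all 3 genes, and no groups overlapped. Pola1, Mcm5, Mcm6, Mcm10, Mcm7, Pole, Rrm1 and Tyms held. The number of DNA replication genes that passed was 9 without DSS DKO replicate 2, 15 without DSS DKO replicate 3, 17 without DSS WT replicate 1, and 12 without DSS WT replicate 2 or replicate 3. Summed over the list, DNA replication genes were at 1900.0, 1877 and 1911 CPM in WT and 1445, 1088 and 965 CPM in DKO, and at 1057, 1194, 1249, 1238 and 1417 CPM in the baseline libraries. DSS WT was thus above all baseline libraries, and DSS DKO reached from below them to just above.

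**Figure D4:**
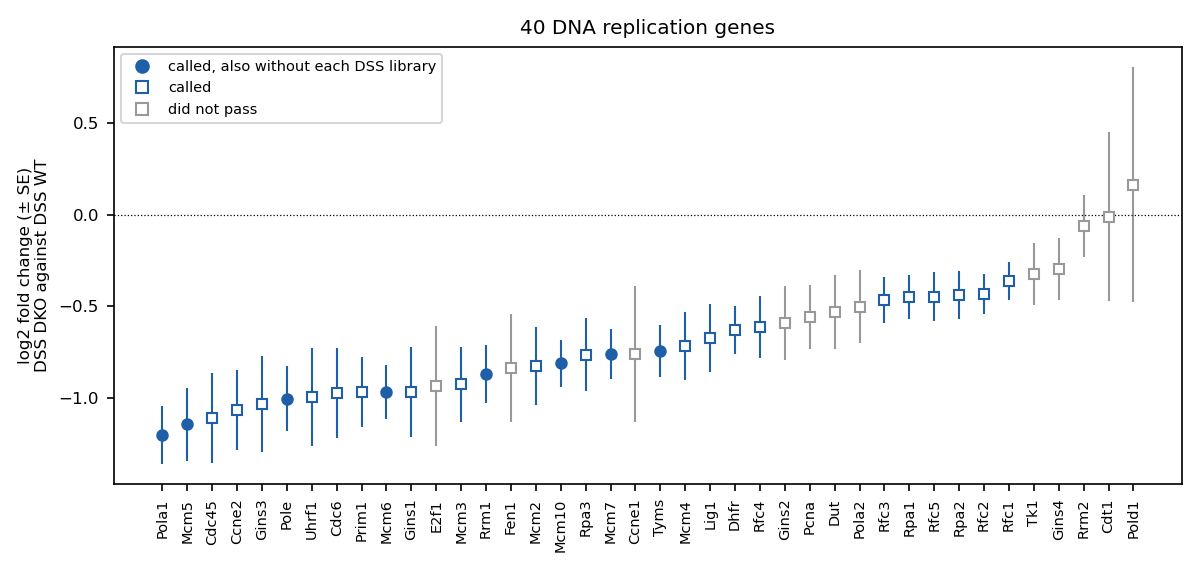
Log2 fold change with its SE (y axis) of 40 DNA replication genes (x axis) in DSS DKO against DSS WT. Blue marks genes that passed, filled circles those that also passed without each DSS library, and grey those that did not pass. Log2 fold changes run from -1.20 for Pola1 to a grey point above zero for Pold1, and 8 genes are filled.

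Of 30 mitosis genes, 6 fell and 0 rose, with a median of -0.43. Without DSS DKO replicate 1, 14 fell, without DSS DKO replicate 2 or DSS WT replicate 3, 1 fell, without DSS WT replicate 2, 3 fell, and the median was -0.18 without DSS DKO replicate 3. Top2a, the topoisomerase that untangles chromosomes, was the member that held (210.2, 206 and 225 CPM in WT and 143, 122 and 71.6 CPM in DKO; -0.93 ± 0.19, adjusted p = 0.0108). The call of Top2a was lost when only the 6 DSS libraries were fitted. Mki67, the usual mark of cycling cells, was at 75.7, 127 and 216 CPM in WT and 165, 133 and 53.2 CPM in DKO, with a nearly 3-fold range within WT and overlapping groups, and did not pass (-0.25, adjusted p = 0.755). Its sign turned to 0.10 without DSS DKO replicate 3 and to 0.21 without DSS WT replicate 3.

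Chaperone genes fell in part. Of 22 heat shock protein genes 10 fell and 0 rose, and 5 held. Without DSS DKO replicate 2, DSS WT replicate 2 and DSS WT replicate 3, 5, 6 and 6 passed. Hsp90aa1, the stress-induced HSP90, was at 772, 899 and 734 CPM in WT and 356, 313 and 185 CPM in DKO (-1.49 ± 0.21, adjusted p = 0.0017), against 165 CPM in baseline WT and 183 CPM in baseline DKO. Hspa4l, a nucleotide exchange factor gene of the HSP110 family, was at 152, 122 and 129 CPM in WT and 68.04, 41.4 and 44.7 CPM in DKO (-1.39 ± 0.17, adjusted p = 0.000986). Hspd1 and Hspe1, the mitochondrial folding chamber and its lid, were at 578, 608 and 585 CPM in WT and 394, 306 and 254 CPM in DKO and at 145, 168 and 147 CPM in WT and 85.4, 76.7 and 57.4 CPM in DKO. Every DKO library was below every WT library in these 4 genes. Of 32 genes of ER chaperones and the unfolded protein response 13 fell, 2 rose (Atf4 and Herpud1) and 7 decreases held, with 7 lower without DSS DKO replicate 2, 9 without DSS WT replicate 2 and 8 without DSS WT replicate 3. Sdf2l1, an ER chaperone cofactor, was at 112, 101 and 101 CPM in WT and 60.99, 37.6 and 40.3 CPM in DKO (-1.18 ± 0.19, adjusted p = 0.00341), and Hsp90b1, the ER form of HSP90, at 625, 662 and 688 CPM in WT and 406, 369 and 299.5 CPM in DKO (-0.88 ± 0.13, adjusted p = 0.00209). Pdia4 and Pdia6, which form disulphide bonds in secreted proteins, fell with -0.93 and -0.90.

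Interferon-response genes fell in part in DKO. Interferon-gamma, a cytokine of T cells and other lymphocytes, induces GTPases that attack intracellular pathogens, chemokines, and antigen presentation. Of 37 interferon-gamma response genes 20 fell, 1 rose (Ifngr1, a receptor chain, 0.42) and 16 did not pass. The median was -1.10, 10 decreases held, and 12 members passed without DSS DKO replicate 2 and 13 without DSS WT replicate 3. Iigp1, an immunity-related GTPase, was at 73.6, 35.5 and 50.2 CPM in WT and 12.05, 4.48 and 4.1 CPM in DKO (-2.95 ± 0.45, adjusted p = 0.00445), against 9.24 CPM in baseline WT and 9.51 CPM in baseline DKO. Tgtp1 and Tgtp2, near-identical GTPase genes whose reads are uncertain, were at 7.09, 3.32 and 4.46 CPM in WT and 0.592, 0.162 and 0.181 CPM in DKO and at 8.27, 5.24 and 6.81 CPM in WT and 1.39, 0.911 and 0.975 CPM in DKO. Irgm2, a GTPase gene whose annotated span overlaps that of Igtp, was at 59.2, 49.9 and 55.3 CPM in WT and 26.98, 21.8 and 25.6 CPM in DKO (-1.14 ± 0.13, adjusted p = 0.000725). Cxcl9, which draws in T cells, was at 1.98, 1.98 and 1.32 CPM in WT and 0.444, 0.324 and 0.363 CPM in DKO (-2.21 ± 0.42, adjusted p = 0.00728). Irf1, a transcription factor gene of the response, fell too (-0.67), and for each gene named here that fell the groups did not overlap. Of 36 type I interferon genes, all had negative log2 fold changes, 10 fell and Bst2, a virus-tethering membrane protein gene, was the one that held (32.1, 27.5 and 27.8 CPM in WT and 14.8, 15.1 and 10.1 CPM in DKO; -1.13 ± 0.23, adjusted p = 0.0108). The number of type I interferon response genes that passed was 2 without DSS DKO replicate 2, 3 without DSS WT replicate 3, and 4 without DSS DKO replicate 3, DSS WT replicate 1 or DSS WT replicate 2.

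The promoters of Tgtp2 and Irgm2 are shown because both held and both carry the core of the interferon-stimulated response element, TTTC and TTTC, or on the other strand GAAA and GAAA, with any 2 bases between, which factors of the IRF family bind. The match is in capitals, on GRCm38.p6.
Tgtp2, chr11:49064163-49064462, minus strand: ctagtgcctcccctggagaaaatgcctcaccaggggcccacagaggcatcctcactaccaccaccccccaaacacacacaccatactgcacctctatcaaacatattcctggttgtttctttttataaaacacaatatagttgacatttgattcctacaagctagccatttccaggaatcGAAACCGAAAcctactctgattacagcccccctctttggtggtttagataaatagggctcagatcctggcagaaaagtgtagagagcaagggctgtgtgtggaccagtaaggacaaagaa
Irgm2, chr11:58214727-58215026, plus strand: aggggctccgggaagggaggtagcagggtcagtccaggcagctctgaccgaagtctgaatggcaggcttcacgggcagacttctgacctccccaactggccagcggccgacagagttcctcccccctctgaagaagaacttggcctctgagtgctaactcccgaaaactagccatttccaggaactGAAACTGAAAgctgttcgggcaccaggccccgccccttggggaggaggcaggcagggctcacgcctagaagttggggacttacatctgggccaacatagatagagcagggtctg
The match starts 70 bases before the annotated start of Tgtp2 and 64 before that of Irgm2. Of the 20 interferon-gamma genes that fell, 15 had a RefSeq promoter and 10 of these (66.7%) held the core, against 473 of 12735 tested genes (3.71%). In the whole interferon-gamma list, whatever its result, the core was in 13 of 26 promoters, and in the whole type I interferon list in 15 of 25. The core was thus common in both lists apart from which members fell, and its part in the falls was not tested. Among all genes lower in DKO the core was in 56 of 882 promoters (6.35%), and among all genes higher in 25 of 721 (3.47%).

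Genes of antigen presentation fell in part, and their lists share members with the interferon lists. Of 26 genes of MHC class I and peptide loading 13 fell and 0 rose, with 5 that held, and 7 fell without DSS DKO replicate 2 or DSS WT replicate 3 and 8 without DSS WT replicate 2. Psmb9 and Psmb8, subunits of the immunoproteasome, were at 46.4, 39.9 and 38.8 CPM in WT and 20.4, 16.8 and 13.8 CPM in DKO and at 63.1, 58.8 and 52.6 CPM in WT and 31.1, 31.6 and 31.95 CPM in DKO. H2-Q7, a nonclassical class I gene with close paralogs, was at 24.1, 17.5 and 16.6 CPM in WT and 6.9, 8.06 and 5.35 CPM in DKO (-1.52 ± 0.25, adjusted p = 0.00374), and Pdia3, an oxidoreductase of the loading complex, at 934, 961 and 968 CPM in WT and 622, 625 and 652 CPM in DKO. All were lower in every DKO library. Of 15 MHC class II genes, H2-Aa, H2-Eb2, H2-Ob, H2-Eb1 and H2-DMb1 fell and 0 held, with a median of -1.69, and 0 passed without DSS WT replicate 2. Leaving out DKO replicates 1, 2 and 3 in turn gave 3, 1 and 2 class II genes. Their summed level was 793, 672 and 526 CPM in WT and 290.4, 369 and 349 CPM in DKO.

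Markers of immune cells moved in opposite directions. Of 32 genes of T cells and intraepithelial lymphocytes 17 fell, 0 rose, all had a negative log2 fold change, and the median was -1.23. In bulk RNA, fewer cells of a type and less RNA per cell cannot be told apart. The summed level of this list was 251, 247 and 222 CPM in WT, 138, 75.7 and 75.6 CPM in DKO and 95.1, 58.7, 72.1, 62.8 and 81.3 CPM in the baseline libraries. DSS DKO replicates 2 and 3 therefore lay within the baseline range and all WT libraries above it. Cd8a, the coreceptor of cytotoxic T cells, was at 17.8, 16.9 and 15.8 CPM in WT and 10.1, 3.71 and 6.17 CPM in DKO, and it passed (-1.34 ± 0.32, adjusted p = 0.0211) but did not hold. Gzmk, a granzyme gene, was the member that held (2.66, 2.11 and 1.72 CPM in WT and 0.315, 0.628 and 0.816 CPM in DKO; -1.89 ± 0.35, adjusted p = 0.00695). The number of T cell and intraepithelial lymphocyte genes that passed was 2 without DSS DKO replicate 2, 4 without DSS WT replicate 2, 8 without DSS WT replicate 3 and 11 without DSS DKO replicate 3 or DSS WT replicate 1. Cd3e, the defining signalling chain, was at 2.65, 2.4 and 2.72 CPM in WT and 1.79, 1.34 and 0.93 CPM in DKO and was close to the threshold (adjusted p = 0.0492); its call was lost when any library but DSS DKO replicate 1 was left out. The part of the T cell markers in the lower interferon-gamma genes was not tested.

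Of 20 neutrophil genes 7 rose, 0 fell and 4 held (4 passed without DSS DKO replicate 2, DSS WT replicate 1 or DSS WT replicate 2), with a median of 0.74 and a summed level of 97.04, 97.98 and 107 CPM in WT and 211, 286 and 247 CPM in DKO. Much of this sum is 1 gene, Ly6g, and without it the list was at 58.1, 71.2 and 81.4 CPM in WT and 97.8, 142 and 113 CPM in DKO. Ly6g, a surface protein gene used as a neutrophil marker, was at 38.97, 26.8 and 25.4 CPM in WT and 113, 144 and 135 CPM in DKO (2.10 ± 0.17, adjusted p = 0.000102). Baseline libraries also had Ly6g, at 16.3 CPM in baseline WT and 19.2 CPM in baseline DKO, against 6.27 and 5.65 CPM of S100a8. Which cells the Ly6g RNA came from was not tested. S100a8, a subunit of the antimicrobial calprotectin, was at 6.86, 6.62 and 7.74 CPM in WT and 16.9, 28.5 and 21.8 CPM in DKO (1.66 ± 0.30, adjusted p = 0.00606). Retnlg, a resistin-like gene of neutrophils, was at 0.666, 1.21 and 1.5 CPM in WT and 3.24, 7.09 and 4.44 CPM in DKO, and Mmp8, neutrophil collagenase, at 1.04, 1.14 and 1.06 CPM in WT and 5.2, 10.5 and 7.37 CPM in DKO. Every DKO library was above every WT library in all 4. Of 22 macrophage and dendritic cell genes Ccr2 and Cd14 fell and 20 did not pass (9.09% passed, beside 11.2% of all genes tested). The summed levels of this list overlapped (197, 219.9 and 214 CPM in WT and 195, 212 and 192 CPM in DKO). Cd14 had the highest level on that list, and without it the sums did not overlap (109, 117 and 112 CPM in WT and 118, 136 and 135 CPM in DKO). Adgre1, the macrophage marker F4/80, was at 1.43, 1.38 and 1.58 CPM in WT and 1.65, 1.94 and 1.43 CPM in DKO (adjusted p = 0.808). Of 17 B and plasma cell genes Ighm fell and 16 did not pass (5.88% passed).

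Of 15 mast cell genes 6 fell and Il1rl1 rose, and 0 held. The mast cell decreases numbered 0 without DSS DKO replicate 2, 1 without DSS WT replicate 2 and 3 without DSS WT replicate 3. Mcpt1, a mucosal mast cell protease gene, was at 20.4, 103 and 56.8 CPM in WT and 9.75, 9.15 and 3.56 CPM in DKO (-3.00 ± 0.65, adjusted p = 0.0198), and its call was lost without DSS DKO replicate 2 or DSS WT replicate 2. Il1rl1, the IL-33 receptor of mast cells and other cells, was at 0.392, 2.01 and 1.23 CPM in WT and 2.98, 35.6 and 64.1 CPM in DKO, with DKO replicate 1 near the WT range (4.81, adjusted p = 0.0173). Il5ra, a receptor chain of eosinophils and some B cells, rose and held, at 0.118, 0.559 and 0.532 CPM in WT and 12.6, 11.9 and 6.26 CPM in DKO (4.65 ± 0.50, adjusted p = 0.000602), while of the other 7 eosinophil genes Alox15 fell and 6 did not pass. Of 20 fibroblast genes 6 rose and Thy1 fell (1 rose without DSS DKO replicate 2, DSS WT replicate 2 or DSS WT replicate 3), and Wnt5a held (4.82, 3.58 and 3.96 CPM in WT and 6.57, 12.5 and 14.8 CPM in DKO; 1.45 ± 0.27, adjusted p = 0.00695). Col1a1, the main collagen of these cells, was at 192, 183 and 159 CPM in WT and 118, 111 and 167 CPM in DKO and did not pass (adjusted p = 0.391).

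**Figure D5:**
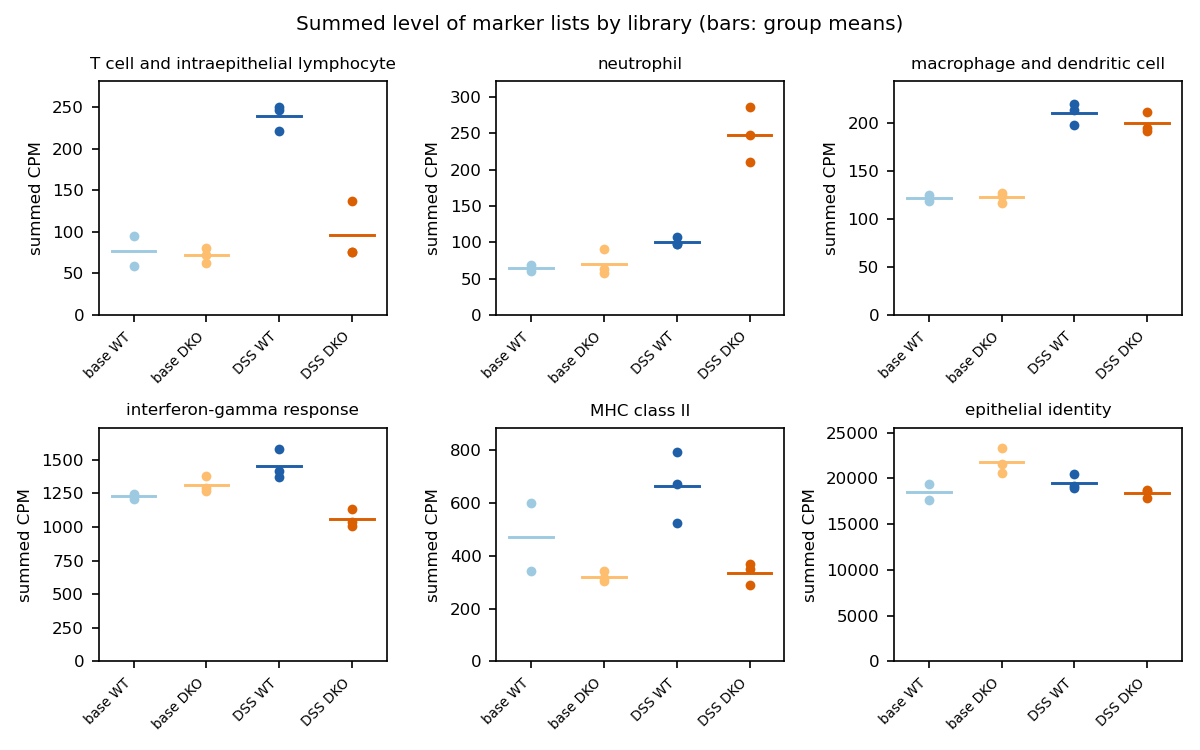
Summed CPM (y axis, from 0) of the measured genes of 6 lists in baseline WT, baseline DKO, DSS WT and DSS DKO (x axis). Points are libraries and bars are group means. T cell genes reach 222 to 251 CPM in DSS WT and 75.6 to 138 CPM in DSS DKO, neutrophil genes 97.0 to 107 CPM and 211 to 286 CPM, and the macrophage list overlaps. Ly6g is much of the neutrophil sum.

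Matrix remodelling genes rose in part. Of 35 measured, 15 rose, 0 fell and 9 held, with a median of 0.97. Lama3 and Lamb3, which encode laminin chains of the epithelial basement membrane, rose, with Lama3 at 25.9, 40.5 and 39.9 CPM in WT and 78.8, 82.03 and 65.9 CPM in DKO and Lamb3 at 137, 83.98 and 89.2 CPM in WT and 191, 231 and 179.5 CPM in DKO. Mmp19, a matrix metalloproteinase gene, was at 0.392, 0.708 and 1.03 CPM in WT and 2.35, 5.02 and 9.25 CPM in DKO (2.96 ± 0.49, adjusted p = 0.00407). Mmp10 and Mmp3, the stromelysins, had 2 counts each in the 3 WT libraries together and 3803 and 911 in the 3 DKO libraries together. In DKO replicate 1 the counts of Mmp10 and Mmp3 were 103 and 22, and in replicate 3 they were 2480 and 551. Loxl2, a collagen crosslinking enzyme gene, was at 0.509, 0.429 and 0.422 CPM in WT and 1.35, 3.44 and 4.76 CPM in DKO. The summed level of the fibroblast list overlapped, at 424, 383 and 356 CPM in WT and 286, 359.7 and 467 CPM in DKO. Without DSS DKO replicate 2, 9 matrix remodelling genes passed, and without DSS WT replicate 2 or replicate 3, 10 passed.

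Of 28 regeneration and YAP target genes 7 rose and Hopx fell (-0.63), with a median of 0.64. The regeneration and YAP target rises numbered 2 without DSS DKO replicate 2 or DSS WT replicate 2 and 3 without DSS WT replicate 3, and the median was 0.40 without DSS DKO replicate 1. Ly6c1, a surface protein gene with close paralogs, was at 6.37, 10.6 and 9.21 CPM in WT and 59.02, 53.4 and 30.9 CPM in DKO (2.45 ± 0.28, adjusted p = 0.000744), and Plaur, the urokinase receptor, at 10.01, 12.4 and 14.3 CPM in WT and 28.3, 26.7 and 19.8 CPM in DKO (1.03 ± 0.20, adjusted p = 0.00797). These 2 held. Of 27 EGF family genes, Nrg1, Tgfa, Lrig3, Ereg and Erbb3 rose and Adam17 fell. Nrg1, an ERBB3 ligand, was at 0.216, 0.224 and 0.587 CPM in WT and 1.44, 6.12 and 7.8 CPM in DKO (3.89 ± 0.63, adjusted p = 0.00407). Tgfa, an EGF receptor ligand of the epithelium, was at 27.04, 20.95 and 23.4 CPM in WT and 36.5, 40.5 and 39.6 CPM in DKO, and Adam17, the protease that sheds such ligands, at 72.6, 73.5 and 72.3 CPM in WT and 56.3, 51.2 and 49.1 CPM in DKO. The call of Adam17 was lost when libraries were scaled by total count only.

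Of 31 antimicrobial and IL-22 response genes 9 rose and Ido1 fell (-1.60), and 4 rises held, which was also the count without DSS WT replicate 2 or DSS WT replicate 3, with 6 without DSS DKO replicate 2. Lcn2, which binds bacterial siderophores, was at 2.14, 2.18 and 2.86 CPM in WT and 9.68, 20.6 and 16.2 CPM in DKO (2.69 ± 0.32, adjusted p = 0.000776). Dmbt1, a secreted scavenger receptor of the mucosa, was at 10794, 11854 and 11568 CPM in WT and 17166, 20194 and 22544 CPM in DKO (0.81 ± 0.15, adjusted p = 0.00679). All DKO libraries were above all WT libraries for both. S100a8 and S100a9 are on this list and on the neutrophil list, and the part of the neutrophil markers in these rises was not tested. Of 42 NF-kB cytokine and chemokine genes 5 rose and 4 fell, with 2 rises without DSS DKO replicate 2 or DSS WT replicate 3 and 9 without DSS DKO replicate 3. Il18, an epithelial cytokine of the IL-1 family, was at 39.8, 47.4 and 45.2 CPM in WT and 75.2, 84.9 and 71.1 CPM in DKO (0.80 ± 0.12, adjusted p = 0.00216). Ccl28, an epithelial chemokine for plasma cells and other lymphocytes, was at 269.6, 266 and 231 CPM in WT and 154, 146 and 160.1 CPM in DKO (-0.74 ± 0.13, adjusted p = 0.00538), and Ccl9 at 35.3, 42.9 and 50.9 CPM in WT and 17.1, 18.6 and 21.3 CPM in DKO.

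Among 37 genes of cell death and the inflammasome 3 rose and 6 fell (3 without DSS DKO replicate 2, DSS WT replicate 2 or DSS WT replicate 3), and the gasdermin C genes, pore-forming proteins of the epithelium, were the decreases that held. Gsdmc4 was at 738, 864 and 801 CPM in WT and 307, 163 and 108 CPM in DKO (-2.06 ± 0.31, adjusted p = 0.00373), Gsdmc2 at 346, 483 and 468 CPM in WT and 188, 155 and 115 CPM in DKO and Gsdmc3 at 125, 164 and 149.9 CPM in WT and 49.1, 50.8 and 34.6 CPM in DKO. The groups were apart in all 3, whose reads are uncertain because the genes are close copies. Baseline libraries had more, with Gsdmc4 at 1940.2 CPM in baseline WT and 1877 CPM in baseline DKO. Of 27 prostaglandin and phospholipase genes 2 rose and 6 fell (3 without DSS DKO replicate 2 or DSS WT replicate 3), among them the secreted phospholipase gene Pla2g3 (35.8, 22.6 and 25.1 CPM in WT and 9.7, 5.41 and 6.37 CPM in DKO; -1.96 ± 0.22, adjusted p = 0.000725).

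Other groups changed in a few members. Nr1d1, a repressor of the circadian clock, was at 3.78, 2.7 and 2.73 CPM in WT and 8.46, 9.78 and 11.9 CPM in DKO (1.71 ± 0.18, adjusted p = 0.000575), against 89.5 CPM in baseline WT and 74.2 CPM in baseline DKO. Slc6a6, the taurine transporter, was at 123, 115 and 121 CPM in WT and 231, 259 and 325 CPM in DKO (1.18 ± 0.14, adjusted p = 0.000744), and Tfrc, the transferrin receptor, at 704, 584 and 722 CPM in WT and 377, 376 and 372 CPM in DKO (-0.84 ± 0.12, adjusted p = 0.00213). Among abundant transcripts, Eef2, the ribosomal translocation factor, was at 3162, 2850.0 and 3109.8 CPM in WT and 4566, 4633 and 5169 CPM in DKO (0.66 ± 0.12, adjusted p = 0.00518), and Srsf5, a splicing factor gene, at 383, 455 and 476 CPM in WT and 572, 790.1 and 871 CPM in DKO. Selenbp1, a methanethiol oxidase, was at 1170.1, 952 and 1013 CPM in WT and 600.5, 546 and 711 CPM in DKO and Tmprss2, a membrane serine protease, at 930.4, 1019 and 914 CPM in WT and 671, 562 and 577 CPM in DKO. Each DKO library lay on 1 side of all WT libraries in these 4. Cldn15, a claudin that forms cation pores, was at 192, 166 and 178 CPM in WT and 125, 92.2 and 83.6 CPM in DKO (-0.83 ± 0.15, adjusted p = 0.0066). Of 64 cytosolic ribosomal protein genes, Rpl8 rose (0.51) and 63 did not pass, though 62 had a positive log2 fold change with a median of 0.31.

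Some of the strongest differences after DSS were also present in untreated mice. Tmem254, a transmembrane protein gene, was at 166, 169 and 165 CPM in WT and 38.1, 35.8 and 32.4 CPM in DKO (-2.23 ± 0.12, adjusted p = 2.51e-06), and at 133 and 154 CPM in baseline WT and 36.6, 37.5 and 45.3 CPM in baseline DKO. Nnt, the mitochondrial transhydrogenase, was at 24.5, 25.6 and 23.3 CPM in WT and 48.7, 47.6 and 52.8 CPM in DKO (1.02 ± 0.12, adjusted p = 0.000803) and at 25.9 and 27.1 CPM in baseline WT and 64.3, 80.6 and 59.96 CPM in baseline DKO. Sprr2a2, a cornified envelope gene with close paralogs, was at 8.54, 7.89 and 7.52 CPM in WT and 4.05, 3.63 and 2.86 CPM in DKO and at 27.8 CPM in baseline WT and 10.8 CPM in baseline DKO. Without a strain label, strain background and deletion cannot be told apart for any gene here.

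Genes with miR-181 sites in their 3′ UTR, which pair with the shared seed, are described by their counts. For each gene the longest 3′ UTR was searched for TGAATGT (7mer-m8), GAATGTA (7mer-A1) and both together, TGAATGTA (8mer). Of 877 tested genes with an 8mer, 39 (4.45%) rose and 85 (9.69%) fell, with a median of -0.03. Of 10703 genes with no site, 665 (6.21%) rose and 745 (6.96%) fell, with a median of 0.03. Genes with any site also had longer 3′ UTRs (median 2483 against 1046 bases) and higher levels (median log2 CPM 4.54 against 3.94), and the part of these in the shares was not tested. The 4 8mer genes with the lowest p among those that held are shown with 30 bases of GENCODE M21 3′ UTR on GRCm38 (mm10), the site in capitals.
Slc9a3, chr13:74169011-74169040, plus strand: gtaaaatcctaTGAATGTAtttccttagga
Slc10a2, chr8:5085022-5085051, minus strand: attgatgtgaaTGAATGTAttcctctgaca
Cbx7, chr15:79916287-79916316, minus strand: ccctgcatattTGAATGTAgaggttgggtt
Tent5c, chr3:100470254-100470283, minus strand: tggagcctcccTGAATGTAagcacttgcta
Slc9a3 and Slc10a2 rose with the values given above. Cbx7, a Polycomb protein gene with 2 8mers, was at 15.6, 9.49 and 10.1 CPM in WT and 34.1, 38.1 and 30.3 CPM in DKO (1.54 ± 0.18, adjusted p = 0.000744), and at 33.6 CPM in baseline WT and 31.2 CPM in baseline DKO, so its DSS WT libraries stood below all other groups. Tent5c, a poly(A) polymerase gene, fell, at 22.96, 25.7 and 18.02 CPM in WT and 6.99, 4.68 and 3.4 CPM in DKO (-2.14 ± 0.25, adjusted p = 0.000744). A match of these letters is not evidence of binding.

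Of 61 published miR-181 targets, Cbx7, Socs3, Zfp36 and Pias3 rose, Cd69, S1pr1, Atm, Hspa5, Atg5 and Kpna4 fell, and 51 did not pass, with a median of -0.02. Cbx7 was the member that held, and 1 rose and 0 fell without DSS DKO replicate 2. Within 5 Mb of the deleted clusters, 8 of 84 tested genes (9.52%) passed around miR-181a1-b1 and 5 of 56 (8.93%) around miR-181a2-b2, beside 11.2% of all genes tested.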

How the data were processed

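Messenger RNA was sequenced in 11 libraries, of which 6 enter the comparison. The submitters' processing notes name STAR and the build mm10. Not given in the sources used here are its version, the read counter, the annotation and the strand setting. The authors deposited raw counts per gene, whole numbers with no normalization, and all columns were matched to samples by name. Reads of overlapping or antisense genes may therefore be mixed. P-values measure the spread between these libraries, which may be technical. Libraries of 1 group differed by more than sampling noise. Chi-square per degree of freedom was 15.9 to 172 within the DSS groups and 73.4 to 897 within the baseline groups. Ribosomal RNA, Rn18s-rs5, made up 23.05%, 8.462% and 0.3152% of counts in baseline DKO replicates 1, 2 and 3. It made up 0.1281% to 0.2501% in the 6 DSS libraries. The baseline libraries enter the shared fit. At these depths counting error matters only for genes with few counts.

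The analysis used edgeR 4.0.16 in R 4.3.3, with filterByExpr (minimum count 10) and TMM scaling. All 11 libraries entered a robust quasi-likelihood fit of the 4 group means, at a common BCV (biological coefficient of variation) of 0.234, and DSS DKO was compared with DSS WT by a two-sided F-test. The SE of a log2 fold change is its size over the square root of F. The method was also run on counts simulated from the model that it fits. That run cannot show how the test handles the uneven spread among these DKO libraries, and no result here rests on it. Named genes were the 15 rises and 15 falls with the largest change among genes that held, were apart between groups and averaged a log2 CPM of 1 or more; up to 4 members of each list that held, by lowest p; fixed defining markers; abundant genes that held; miR-181 genes and up to 4 8mer genes. A few genes that this rule or the lists name are not reported here. Others, such as list members that passed without holding, were named after their values were seen. The lists, the comparison and this rule were chosen with earlier results of these data known. Positions, 3′ UTRs and 5 Mb windows are from GENCODE M21 on GRCm38, which placed 18660 of the 19267 tested genes, and promoters from RefSeq, which matched 12735. Alternatives were other scalings and filters, DESeq2 1.42.0, limma-voom (limma 3.58.1), the 6 libraries alone, a test of a change over 1.5-fold, a replicate block and leaving out each library.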

Additional observations from a re-analysis of the deposited data

How the results depend on the processing

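Counts of genes that passed depended on the setting. The 2165 genes (1013 higher, 1152 lower) became 1372 (536 higher) with the 6 DSS libraries alone, 308 (175 and 133) in the test of a change over 1.5-fold, 1807 higher genes with no filter on low counts, and 718 lower genes with scaling by total count only. Leaving out 1 library at a time gave 691 to 3064 genes, 344 to 1426 of them higher and 347 to 1638 lower. DESeq2 called 3117 genes, of which 2164 were among the 2165, and limma-voom 2263, of which 2011 were. For 145 named genes, 2805 of 2896 values under the alternatives kept direction and side of the threshold, 79 lost the call, 4 gained it and 8 changed sign. Most named genes were chosen for passing without each DSS library, so this share is fixed in part by that choice and is no sign of stability. The test of a change over 1.5-fold, which asks for more, accounted for 52 of the 79. The signs that changed belonged to genes that had not passed: Muc2 (-0.134 to 0.117 over the libraries left out), Mki67 (-0.582 to 0.213), Nr3c1 (-0.032 to 0.053, and -0.004 with no filter) and Hes1 (-0.027 to 0.164). The cause of these shifts was not tested.

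The labels do not say whether replicate numbers pair the libraries. Deviations from the group means correlated at 0.302, 0.0194 and 0.201 for numbers 1, 2 and 3. WT replicates 1 and 3 correlated best with the DKO library of the same number, and WT replicate 2 with DKO replicate 3 (0.157). Deviations within a group are not independent, so these values cannot decide whether libraries are paired. A fit with the replicate number as a block called 2775 genes, 1423 higher and 1352 lower. Limits are the 3 libraries a group, the spread among DKO libraries (median SD of log2 CPM 0.304, against 0.208 in WT), and the lists' shared members. Depth limits only low genes such as Cyp24a1, Mmp3 and Mmp10.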

Other observations

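The second principal component of the 6 DSS libraries (25.99% of the variance) did not separate the genotypes. DKO replicates 1, 2 and 3 lay at 61.28, 17.56 and -44.76 on it, and WT replicates 1, 2 and 3 at 23.86, -30.53 and -27.4. Axin2, a Wnt feedback gene, was at 30.2, 12.97 and 13.7 CPM in WT and 21.7, 5.19 and 2.95 CPM in DKO. The summed level of Notch pathway and secretory fate genes was 822, 486 and 512 CPM in WT and 917, 659 and 439 CPM in DKO, with WT replicate 1 and DKO replicate 1 highest in their groups. That of Hox and regional identity genes was 2066, 1669 and 1655 CPM in WT and 2102, 1520.0 and 1287 CPM in DKO, with replicate 1 again highest in both. Of 34 Hox and regional identity genes Hoxb5 and Hoxd4 rose (5.88% passed, beside 11.2% of all genes tested). Without DSS DKO replicate 1, 4 rose and 8 fell, with a median of -0.27. Libraries of 1 genotype therefore differed along an axis that the labels do not name. Whether this axis goes with the replicate number was not tested.

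Il1rl1, Mmp10, Mmp13 and Plau, which passed, varied widely within DKO. Mmp13, a collagenase gene, was at 3.59, 3.97 and 4.07 CPM in WT and 5.11, 63.1 and 138 CPM in DKO, and Plau, urokinase, at 0.235, 0.82 and 0.257 CPM in WT and 1.48, 11.8 and 26.96 CPM in DKO, so that DKO replicate 1 lay near WT and the other 2 DKO libraries far above it. Reg3b, an antimicrobial lectin gene that did not hold, was at 414, 480.0 and 506 CPM in WT and 1385, 2513 and 3911 CPM in DKO. Hsph1, a heat shock protein gene that did not hold, was at 309.8, 369 and 271 CPM in WT and 154, 59.95 and 29.6 CPM in DKO. It was at 26.9 CPM in baseline WT and 28.8 CPM in baseline DKO, with DSS DKO replicate 3 close to the baseline level.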
